A study of Mus musculus with 24 samples.

Results

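The Cyp4 fatty acid omega-hydroxylases were examined in livers of fasted mice through 9 genes, Cyp4a10, Cyp4a14, Cyp4a31, Cyp4a32, Cyp4a12a, Cyp4a12b, Cyp4f14, Cyp4f15 and Cyp4v3. They were chosen by gene name, and all 9 were found among the 35275 genes of the read-count table. RNA-seq was performed on liver RNA of male C57BL/6 mice that were 8 to 10 weeks old and had been fasted for 24 hours, with single 75-base reads and 4 libraries in each of 6 groups. The question was how loss of hepatic fatty acid oxidation, active mTorc1 signaling and loss of Pparα each bear on the liver transcriptome. Control mice are labelled wild type, and in the study they carried unrecombined floxed alleles. Tsc1L-/- mice lacked Tsc1, a brake on mTorc1, in the liver. Cpt2L-/- mice lacked Cpt2, the carnitine palmitoyltransferase that mitochondrial oxidation of long-chain fatty acids requires, in the liver. Mice labelled Tsc1Cpt2 L-/- lacked both and are called DKO. The other groups carried a Ppara knockout, which the labels do not describe as liver-specific, either alone (Ppara KO) or with hepatic loss of Cpt2 (Cpt2L-/- Ppara KO). The L-/- deletions were made with an Albumin promoter-driven Cre, which acts in hepatocytes, so the other cells of the liver keep the gene. All groups shared the fast, so no fed liver is available for comparison. The paper describes the control mice as littermates, but the labels do not say whether the mice of a group were. The p-values therefore measure only the spread between the libraries sequenced here. That spread was taken within groups and pooled over all groups fitted together, so it also draws on libraries outside the comparison tested.

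Cyp4 enzymes are cytochromes P450 of the endoplasmic reticulum that place a hydroxyl group on the omega carbon, the far end of a fatty acid. Alcohol and aldehyde dehydrogenases oxidize that end to a second carboxyl group, and the dicarboxylic acids are shortened in peroxisomes. The route is minor in the fed liver and grows in fasting, diabetes and defects of mitochondrial beta-oxidation. Cyp4a10 and Cyp4a14 are classic target genes of Pparα, the nuclear receptor that senses fatty acids. Cyp4a12a is expressed more in males than females and hydroxylates arachidonic acid, Cyp4f enzymes inactivate leukotrienes and other eicosanoids, and Cyp4v3 is the mouse counterpart of the human gene mutated in Bietti crystalline dystrophy.

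Of the 9 genes, 6 lie in a single 323-kilobase stretch of chromosome 4 in GRCm38. In order along the chromosome these are Cyp4a12a (ENSMUSG00000066071, chr4:115299046-115332815, plus strand), Cyp4a12b (ENSMUSG00000078597, chr4:115411624-115439034, plus strand), Cyp4a14 (ENSMUSG00000028715, chr4:115486200-115496142, minus strand), Cyp4a10 (ENSMUSG00000066072, chr4:115518264-115533649, plus strand), Cyp4a31 (ENSMUSG00000028712, chr4:115563649-115579015, plus strand) and Cyp4a32 (ENSMUSG00000063929, chr4:115600969-115621602, plus strand). Cpt2 lies on the same chromosome, 7.38 megabases before the start of Cyp4a12a. Cyp4f14 (ENSMUSG00000024292, chr17:32905071-32917342, minus strand) and Cyp4f15 (ENSMUSG00000073424, chr17:32685627-32703352, plus strand) share chromosome 17. Cyp4v3 (ENSMUSG00000079057, chr8:45269671-45333216, minus strand) stands alone.

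How alike the members are decides how well their reads can be told apart. The coding stretch around the codon of the heme-binding cysteine, which holds the iron of every P450, shows this. The 60 bases below were read from the GENCODE M21 transcripts, 5′ to 3′, and run across 1 intron in each gene, with capitals at bases that differ from Cyp4a10.
Cyp4a10: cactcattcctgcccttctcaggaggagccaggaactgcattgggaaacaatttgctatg
Cyp4a31: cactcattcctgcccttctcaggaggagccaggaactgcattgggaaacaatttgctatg
Cyp4a32: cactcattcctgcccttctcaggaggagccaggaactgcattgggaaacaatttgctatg
Cyp4a12a: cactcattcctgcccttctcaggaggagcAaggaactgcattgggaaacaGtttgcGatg
Cyp4a12b: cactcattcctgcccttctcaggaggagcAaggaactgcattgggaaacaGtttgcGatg
Cyp4a14: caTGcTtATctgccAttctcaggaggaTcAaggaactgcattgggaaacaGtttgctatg
Cyp4f14: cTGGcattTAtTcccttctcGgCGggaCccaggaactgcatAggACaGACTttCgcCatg
Cyp4f15: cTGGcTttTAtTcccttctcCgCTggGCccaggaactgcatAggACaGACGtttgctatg
Cyp4v3: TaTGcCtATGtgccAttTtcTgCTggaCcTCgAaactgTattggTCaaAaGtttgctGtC

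Cyp4a10, Cyp4a31 and Cyp4a32 do not differ in this stretch, and Cyp4a12a and Cyp4a12b are also identical to each other there, with 3 differences from Cyp4a10. Cyp4a14 differs at 9 bases, Cyp4f14 and Cyp4f15 at 19 bases each and Cyp4v3 at 23 bases. Over the whole coding sequence, Cyp4a10 was 97.2% identical to Cyp4a32 and 96.6% to Cyp4a31, whereas Cyp4a12a and Cyp4a12b were 98.5% identical. Cyp4a14 was 76.1% identical to Cyp4a10, and Cyp4f14 was 82.1% identical to Cyp4f15. Of all possible 75-base reads, 40.8% from Cyp4a12a and 41.3% from Cyp4a12b also match the other one exactly. For Cyp4a32 the share matching any other gene was 30.4%, mostly Cyp4a10 (20.7%), for Cyp4a10 it was 19.1% and for Cyp4a31 13.9%. No read of Cyp4a14 matched another gene, the shares were 0.188% for Cyp4f14 and 0.191% for Cyp4f15, and 6.4% of those from Cyp4v3 matched Gm45753. How shared reads were counted is not given in the sources used here, so levels within these near-identical sets are uncertain.

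RefSeq promoter windows of 250 bases before to 50 bases after a gene's start (GRCm38.p6) were at hand for 4 of the 9 members, Cyp4a32, Cyp4f14, Cyp4f15 and Cyp4v3. Cyp4a32 is the member among them that differed most between genotypes, and its upstream 250 bases, chr4:115600688-115600937 on the plus strand, are shown with the only motif match in capitals.
Cyp4a32: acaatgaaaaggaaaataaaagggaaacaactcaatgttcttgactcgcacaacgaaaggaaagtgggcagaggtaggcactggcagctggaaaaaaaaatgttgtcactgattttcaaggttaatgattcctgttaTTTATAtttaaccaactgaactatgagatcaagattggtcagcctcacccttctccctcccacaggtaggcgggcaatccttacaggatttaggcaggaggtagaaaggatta

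The capitals are TATAAA read on the opposite strand, beginning 113 bases before the start. The search, on both strands, was for TATAAA, for AGGTCA, the half-site of nuclear receptor elements, and for AGGNCA repeated in the same direction after 1 base, which is the form of a Pparα element and can overlap an AGGTCA. None of the 4 members had AGGTCA or the repeat in its windows, and no other TATAAA was found. Among 32851 windows of all genes, 16.3% held AGGTCA, 0.381% the repeat and 13.6% TATAAA. A missing match says only that these letters are not in these windows.

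Total counts ranged from 14470968 to 20371204 per library, and all 9 members passed the filter on low counts in both fits. The targeted genes were examined first. Tsc1 fell from 38.5 ± 1.32 CPM (counts scaled to the TMM-adjusted size of the library, SD, n = 4) in control livers to 24.5 ± 4.56 CPM in Tsc1L-/- and was 16.4 ± 1.24 CPM in DKO livers. Ppara fell from 259 ± 28.6 CPM in control to 27.4 ± 16.3 CPM in Ppara KO livers. The Cpt2 count did not separate Cpt2L-/- livers (91.7 ± 10.4 CPM) from control (98.6 ± 7.04 CPM), and the deleted part of the gene is not given in the sources used here, so groups named Cpt2L-/- or DKO rest on the labels for Cpt2. A pair of libraries stood apart. In the library labelled Cpt2L-/- Ppara KO replicate 1, Ppara was 90.0 CPM against 26.2 to 45.7 CPM in the other 3, Cpt2 was 123 CPM against 31.4 to 39.1 CPM, and Ehhadh, a peroxisomal Pparα target, was 3542 CPM against 132 to 169.6 CPM. Tsc1, which the label leaves intact, was 23.8 CPM in it against 42.4 to 50.1 CPM, within the 18.1 to 28.8 CPM of Tsc1L-/- libraries. Its Tsc1 level thus goes against its label, although its Ppara level is below every control library (216 to 278 CPM), and whether the label is right was not tested, so directions drawn from its group rest on the label. In Tsc1L-/- replicate 3, Ehhadh was 144 CPM against 715 to 1811 CPM in the other 3, with Ppara at 254 CPM. Member results in which leaving out such a library changed the call or moved the fold by more than 1.5 times are given with and without it. Such refits covered only comparisons that include the library's group, although the spread used in the other comparisons of its fit also draws on it. Separately, Cd1d2 and Rps3a3, which were chosen after their values were seen, averaged 36.0 and 66.8 CPM in control, 25.4 and 56.4 CPM in Tsc1L-/- and 20.9 and 75.5 CPM in DKO livers and were at most 0.868 and 3.4 CPM in all Cpt2L-/-, Ppara KO and Cpt2L-/- Ppara KO libraries. Genotype and whatever this split marks cannot be told apart in comparisons of Cpt2L-/- or Ppara KO with control and of DKO with Cpt2L-/-, and in both interaction tests, which contain these comparisons. The comparisons of Tsc1L-/- or DKO with control, of DKO with Tsc1L-/-, and of Cpt2L-/- Ppara KO with Cpt2L-/- or with Ppara KO, stay on one side of it. All 6 hepatocyte markers were above 1 CPM in every group, but their summed level was 59472 to 73053 CPM in control livers and wholly lower in Tsc1L-/- (37659 to 59434 CPM), Cpt2L-/- (29065 to 53625 CPM), DKO (25392 to 30288 CPM) and Cpt2L-/- Ppara KO livers (34434 to 53009 CPM), with overlap in Ppara KO livers (49148 to 77569.6 CPM), and the summed markers of kidney tubule, another site of Cyp4 expression, were 0.232 to 1.17 CPM in control and highest in Tsc1L-/- livers (4.38 to 14.1 CPM). Of the 4 kidney markers only 1 averaged at least 1 CPM in Tsc1L-/- livers. Summed Kupffer and stellate cell markers were wholly lower in DKO livers (96.3 to 138 and 154 to 189.8 CPM) than in control (167 to 292 and 219 to 287 CPM). Endothelial markers were wholly lower in Cpt2L-/- Ppara KO livers (129.7 to 227 CPM against 256 to 291 CPM). None of these cell types was wholly above control in any group. Whether the marker levels bear on the Cyp4 values was not tested. In bulk liver RNA, fewer hepatocytes, less RNA per hepatocyte and regulation of the marker genes themselves cannot be told apart.

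Cyp4a14 and Cyp4a10 were the most abundant members in control livers. Per gene length, in FPKM, Cyp4a14 was highest in control livers at 3239 ± 369 FPKM (SD, n = 4), followed by Cyp4a10 at 2137 ± 566 FPKM, and the ranges of these 2 genes overlapped. The next was Cyp4a12a at 142 ± 23.8 FPKM, overlapping Cyp4v3 at 111 ± 7.58 FPKM. Cyp4f15 (72.8 ± 15.4 FPKM) was lower than Cyp4v3 in every library. Cyp4a32, Cyp4a31, Cyp4f14 and Cyp4a12b followed at 43.8 to 19.8 FPKM, each overlapping the next. The order changed in Ppara KO livers, with Cyp4v3 at the top (103 ± 17.4 FPKM), separate from Cyp4f14 (54.6 ± 7.85 FPKM), Cyp4a12a (46.4 ± 24.3 FPKM), Cyp4f15 (40.5 ± 3.4 FPKM) and Cyp4a10 (37.0 ± 31.6 FPKM), each of which overlapped the next, while Cyp4a14 was at 9.77 ± 10.4 FPKM. Cyp4a32 came after Cyp4a14 and Cyp4a10 in Cpt2L-/- livers at 161 ± 16.5 FPKM, without overlap with its neighbours. Of all gene counts, the 9 members together took 1.11 to 1.62% in control, 1.89 to 2.1% in Cpt2L-/- and 0.0825 to 0.0922% in Ppara KO livers. Cyp4a10 and Cyp4a14 alone took 0.983 to 1.5% in control and 0.00204 to 0.0235% in Ppara KO livers.

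**Figure D1:**
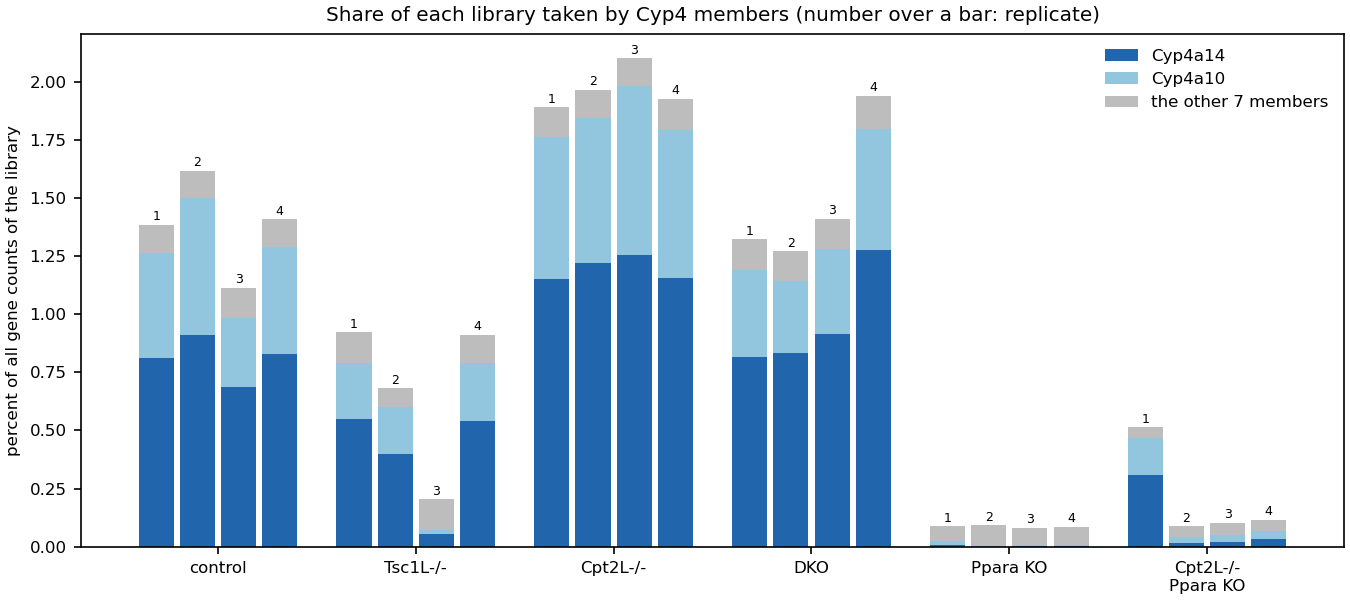
Percent of all gene counts of each of the 24 libraries that fell on Cyp4a14 (dark blue), Cyp4a10 (light blue) and the other 7 members (grey), with replicate numbers over the bars. The shares are 1.89 to 2.1% in Cpt2L-/- livers and under 0.1% in Ppara KO livers, and Tsc1L-/- replicate 3 (0.204%) and Cpt2L-/- Ppara KO replicate 1 (0.513%) differ from the other libraries of their groups.

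The number of members that differed was set beside the share of all genes that did, using edgeR's quasi-likelihood test with Benjamini-Hochberg adjustment over all genes at a threshold of 0.05. In Ppara KO against control livers, 6 of 9 members fell and none rose, while 29% of 13615 genes were called, 15.9% higher and 13.2% lower. The other Ppara contrast, Cpt2L-/- Ppara KO against Cpt2L-/-, also had 6 of 9 fall and none rise, where 18.4% of genes were called, 10.3% higher and 8.01% lower. Without Cpt2L-/- Ppara KO replicate 1, 6 fell and 1 rose, Cyp4f14, with 6.74% of genes called higher and 6.59% lower. Against Ppara KO livers, 3 members rose and 3 fell in Cpt2L-/- Ppara KO, with 25.5% of genes called, 12.9% higher and 12.6% lower. Without Cpt2L-/- Ppara KO replicate 1 these were 2 and 3, with 5.74% of genes called higher and 6.69% lower, and in a fit of these 2 groups alone no member was called by edgeR. Loss of Cpt2 alone against control gave 2 members that rose and 3 that fell, with 31% of 13641 genes called, 16.2% higher and 14.9% lower. DKO against control livers likewise had 2 rise and 3 fall, with 36.4% of genes called, 19.3% higher and 17.1% lower. Against Tsc1L-/- livers, 2 rose and 2 fell in DKO, with 32.2% called, 16.9% higher and 15.2% lower, and without Tsc1L-/- replicate 3 these were 5 and 2, with 14.3% of genes called higher and 12.8% lower. Against Cpt2L-/- livers, 1 rose and 1 fell in DKO, with 18.3% called, 10.9% higher and 7.4% lower. In Tsc1L-/- against control livers no member was called by edgeR, 5 had an unadjusted p under 0.05 and DESeq2 called 2, while 6.64% of genes were called, 4.16% higher and 2.48% lower. Without Tsc1L-/- replicate 3, 3 members fell in Tsc1L-/- livers, with 4.28% of genes called higher and 2.71% lower. The comparisons share control or Cpt2L-/- libraries, so their values are given side by side and not as independent evidence of each other.

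**Figure D2:**
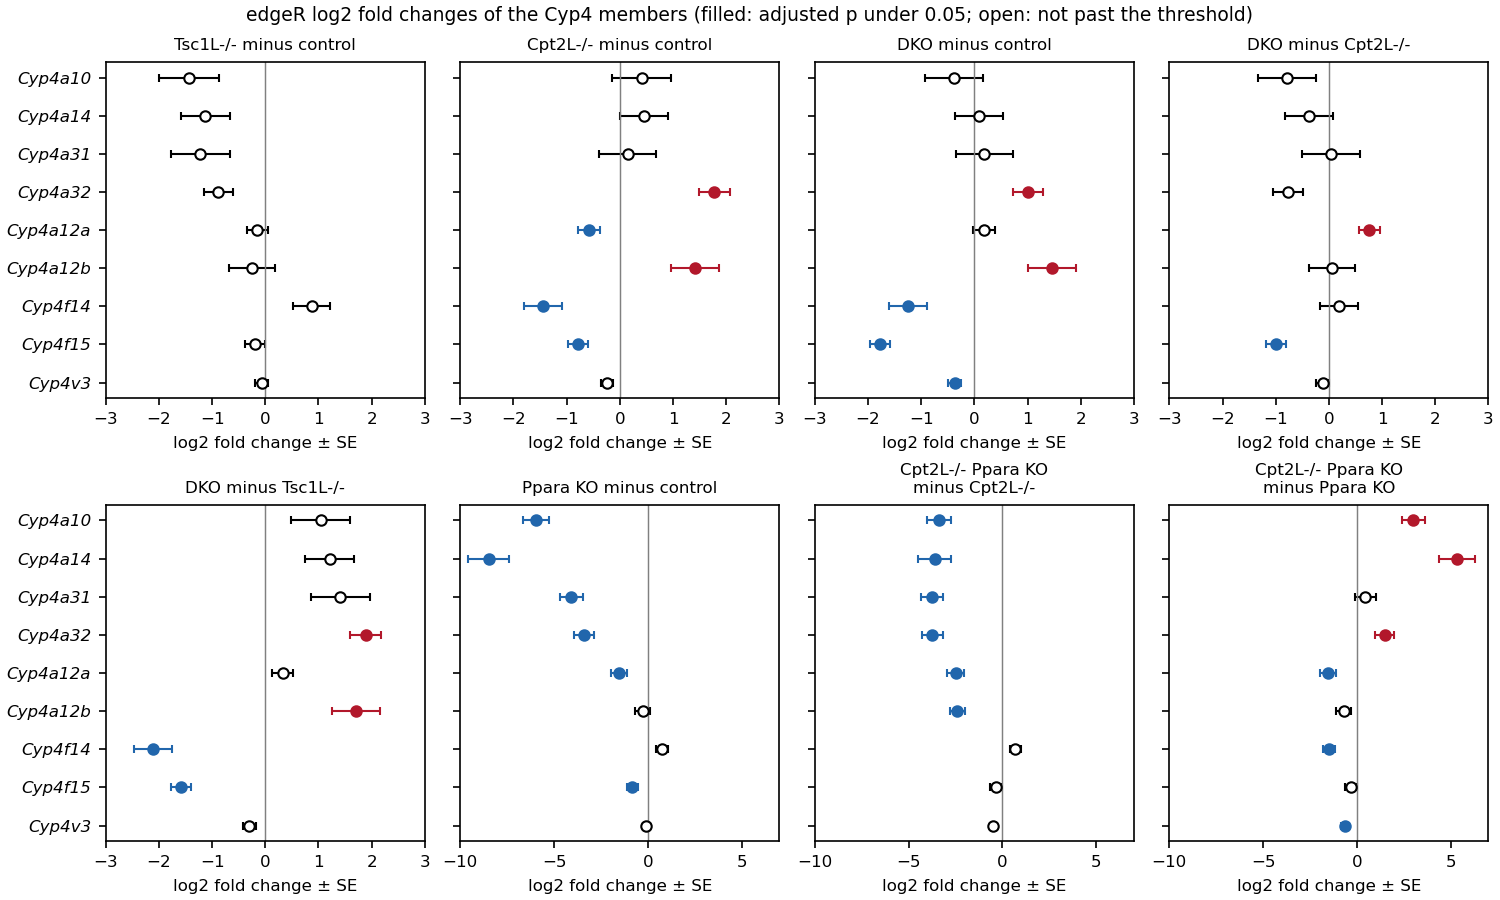
log2 fold change (points) ± SE (bars) of each member in 8 comparisons of groups of 4 libraries, from edgeR. Filled points passed the adjusted p threshold of 0.05 (red higher, blue lower) and open points did not, and the 3 panels with Ppara KO groups have a wider axis because Cyp4a14 reached −8.48 there.

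Cyp4a14 and Cyp4a10 had the largest fold changes of the 9 members in Ppara KO livers. Cyp4a14 was 8626, 10685, 6577 and 8417 CPM in control livers and 57.2, 4.74, 21.3 and 12.2 CPM in Ppara KO livers. The groups lay far apart, and the Ppara KO libraries spread 12.1-fold among themselves. The fitted log2 fold change was −8.48 ± 1.1 (SE, edgeR adjusted p = 5.96e-05), a 357-fold fall. Cyp4a10 was 4834, 6934, 2856 and 4687 CPM in control and 158, 19.8, 73.0 and 58.5 CPM in Ppara KO livers. Its groups did not overlap, and it fell 62.2-fold (log2 fold change −5.96 ± 0.71, edgeR adjusted p = 2.41e-05). Ppara KO replicate 1 was the highest of its group for both genes. Over the 16 alternatives run for each, the log2 fold change ran from −9.41 to −8.14 for Cyp4a14 and from −6.6 to −5.64 for Cyp4a10. Both calls were kept in all of them.

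Both genes were higher when Cpt2 was also missing. Cyp4a14 in Cpt2L-/- Ppara KO livers was 3183, 185, 198 and 294 CPM, and all 4 libraries lay above the 4 of Ppara KO. Cyp4a10 was 1593, 276, 300.2 and 297 CPM there, also without overlap with Ppara KO. Cyp4a14 rose by 5.34 ± 0.96 (log2, SE) and Cyp4a10 by 3 ± 0.62 against Ppara KO, with edgeR adjusted p of 0.00391 and 0.00587. Without replicate 1, which held the highest value for both, the rises were 3.23 ± 0.54 and 1.90 ± 0.45 with adjusted p of 0.00488 and 0.0184. In a fit of these 2 groups alone the adjusted p were 0.0516 and 0.0582. Both genes remained below Cpt2L-/- livers, where Cyp4a14 was 10247 to 12698 CPM and Cyp4a10 5449.9 to 7354 CPM. These falls were −3.60 ± 0.88 for Cyp4a14 (edgeR adjusted p = 0.0121) and −3.37 ± 0.63 for Cyp4a10 (adjusted p = 0.0023), and −5.71 ± 0.67 and −4.46 ± 0.54 without replicate 1.

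With Pparα present, loss of Cpt2 gave smaller differences that did not pass the test. Cyp4a14 averaged 11794 ± 1083 CPM in Cpt2L-/- livers against 8576 ± 1680.4 CPM in control (log2 fold change 0.46 ± 0.45, edgeR adjusted p = 0.48), and Cyp4a10 averaged 6423 ± 784 CPM against 4828 ± 1668 CPM (0.41 ± 0.55, adjusted p = 0.614). The groups overlapped for both genes. These SEs come from a fit that also holds Tsc1L-/- replicate 3, a library of neither group. In Tsc1L-/- against control, leaving it out took the SE from 0.46 to 0.2 for Cyp4a14 and from 0.56 to 0.24 for Cyp4a10. A failed test here thus does not show that Cpt2 loss leaves these genes unchanged. The difference between the Cpt2 effects without and with Ppara, tested as an interaction, was 4.88 ± 1.19 for Cyp4a14 (adjusted p = 0.00886) and 2.59 ± 0.83 for Cyp4a10 (adjusted p = 0.0314), and 3 of 9 members were called in that interaction, 2 higher and 1 lower, against 24% of all genes, 12% in each direction. The Cyp4a14 call was kept in all 23 alternatives and the Cyp4a10 call in 15 of 23. Without Cpt2L-/- Ppara KO replicate 1 the differences became 2.77 ± 0.71 for Cyp4a14 (adjusted p = 0.0127) and 1.49 ± 0.61 for Cyp4a10 (adjusted p = 0.0894, no longer called). The count then turned to 1 higher, Cyp4a14, and 3 lower, with 10.6% of genes called higher and 11.6% lower, since Cyp4a32 (−0.31 ± 0.71, adjusted p = 0.784, with all libraries and −1.51 ± 0.36, adjusted p = 0.00805, without the replicate) and Cyp4a12a (−0.94 ± 0.59, adjusted p = 0.257, and −1.68 ± 0.44, adjusted p = 0.013) joined Cyp4a12b. Cyp4a31 was 0.31 ± 0.76 (adjusted p = 0.8) with all libraries and −0.61 ± 0.62 (adjusted p = 0.516) without it. The interaction includes the control libraries, which lie on the other side of the Cd1d2 split from the other 3 groups, so genotype and split cannot be told apart in it.

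In Tsc1L-/- livers Cyp4a14 was 5826, 4240.2, 518 and 5036 CPM and Cyp4a10 2568, 2100.1, 151 and 2325 CPM. All 4 libraries were below all 4 controls for both genes, and replicate 3 was far below the others. The log2 fold changes were −1.13 ± 0.46 and −1.43 ± 0.56 and did not pass the test (edgeR adjusted p = 0.164 and 0.152). Without replicate 3 they were −0.76 ± 0.20 (adjusted p = 0.0302) and −1.04 ± 0.24 (adjusted p = 0.0143), smaller and past the threshold. Lower groups without overlap were found for 4 members, Cyp4a10, Cyp4a14, Cyp4a31 and Cyp4a32, and for 5.37% of all genes. DKO livers held 7308 to 11879 CPM of Cyp4a14 and 2886 to 4833 CPM of Cyp4a10, above every Tsc1L-/- library. Against Tsc1L-/- these differences were 1.21 ± 0.46 and 1.04 ± 0.55 (adjusted p = 0.0559 and 0.167), and without Tsc1L-/- replicate 3 they were 0.84 ± 0.20 (adjusted p = 0.00519) and 0.66 ± 0.24 (adjusted p = 0.0478). Against control, DKO livers overlapped for both genes. Against Cpt2L-/- livers Cyp4a10 was lower in every library without passing the test (−0.79 ± 0.55, adjusted p = 0.337). The spread used in that test also draws on Tsc1L-/- replicate 3.

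**Figure D3:**
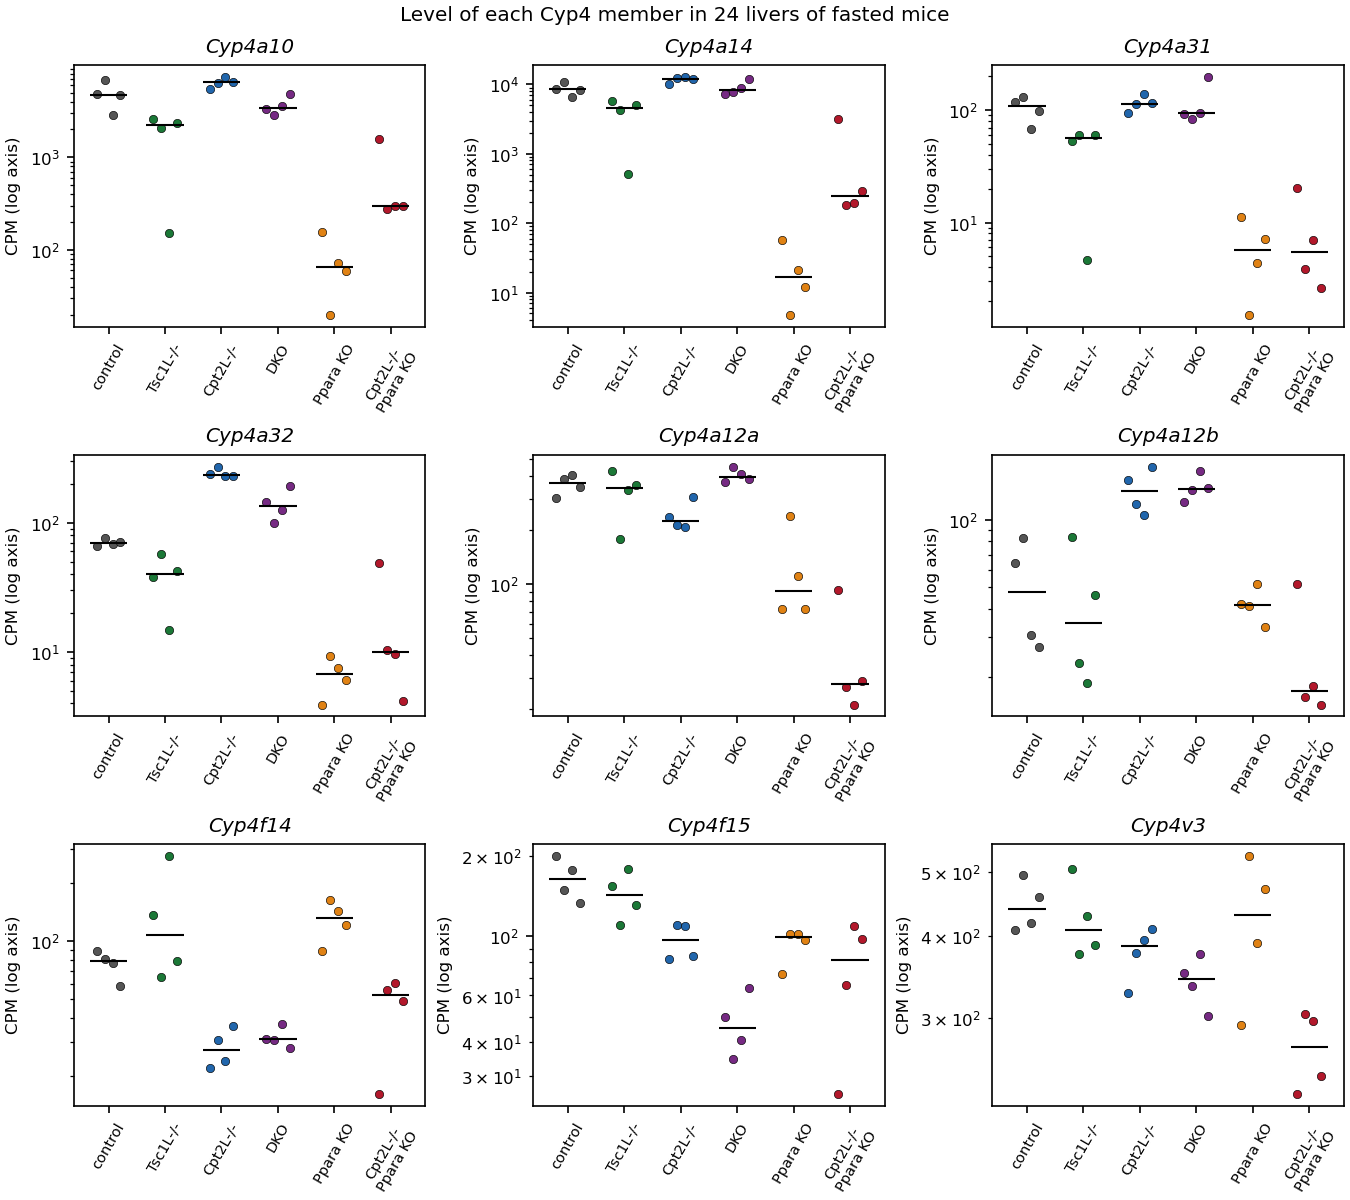
CPM of each of the 9 members in 24 libraries (points, in replicate order within a group) with the group median (line), each panel on its own log axis. The group medians of Cyp4a10, Cyp4a14, Cyp4a31 and Cyp4a32 are lowest in the Ppara KO groups, with Tsc1L-/- replicate 3 (151, 518, 4.59 and 14.9 CPM) within the range of those groups, for Cyp4a14 and Cyp4a32 only through Cpt2L-/- Ppara KO replicate 1 (3183 and 49.0 CPM), whereas Cyp4f14 lies lowest in Cpt2L-/- and DKO livers apart from 1 Cpt2L-/- Ppara KO library at 16.2 CPM.

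Cyp4a31 and Cyp4a32, the near copies of Cyp4a10, are less studied omega-hydroxylase genes. Both fell in Ppara KO livers. With Pparα present, Cyp4a32 passed the test for loss of Cpt2 and Cyp4a31 did not, and the difference between these genes was not tested. Cyp4a32 was 66.1, 76.4, 68.4 and 70.6 CPM in control and 239, 272, 229 and 229.5 CPM in Cpt2L-/- livers. The groups lay far apart with little spread within either, and Cyp4a32 rose 3.44-fold (log2 fold change 1.78 ± 0.29, edgeR adjusted p = 0.000246). In DKO livers it was 146, 98.9, 126 and 191 CPM, between the other groups, a rise of 1.01 ± 0.28 over control (adjusted p = 0.0106). Against Cpt2L-/- livers the DKO value was lower in every library, at −0.77 ± 0.28, and did not pass the test (adjusted p = 0.0665). In Tsc1L-/- livers Cyp4a32 was 38.0, 57.5, 14.9 and 42.3 CPM, a difference from control of −0.88 ± 0.28 (adjusted p = 0.077) that was −0.61 ± 0.18 (adjusted p = 0.0478) without replicate 3. DKO exceeded Tsc1L-/- livers by 1.89 ± 0.29 (adjusted p = 0.000152), and by 1.62 ± 0.18 without replicate 3, a comparison that lies on one side of the Cd1d2 split.

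Cyp4a32 fell 10.7-fold in Ppara KO livers, to 3.92, 9.24, 7.49 and 6.11 CPM (log2 fold change −3.41 ± 0.55, edgeR adjusted p = 0.000332). Its values in Cpt2L-/- Ppara KO livers were 49.0, 10.4, 9.58 and 4.14 CPM, overlapping Ppara KO. The rise of 1.47 ± 0.52 over Ppara KO (adjusted p = 0.0486) rested on replicate 1, since without it the difference was 0.27 ± 0.27 (adjusted p = 0.532). Against Cpt2L-/- livers Cyp4a32 fell by 3.73 ± 0.55 (adjusted p = 0.00042), and the log2 fold change was −4.93 ± 0.32 without that replicate.

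Cyp4a31 was 119, 129.8, 68.5 and 98.6 CPM in control livers and fell to 11.3, 1.5, 4.37 and 7.07 CPM in Ppara KO livers, 16.9-fold (log2 fold change −4.08 ± 0.60, edgeR adjusted p = 0.00016). The groups did not overlap. In Cpt2L-/- livers it was 94.1 to 139 CPM and in DKO livers 83.9 to 197 CPM, both overlapping control. Livers of Cpt2L-/- Ppara KO mice held 20.3, 3.89, 7.04 and 2.61 CPM of Cyp4a31, overlapping Ppara KO, with a difference of 0.45 ± 0.55 that was −0.46 ± 0.48 without replicate 1 (adjusted p = 0.573 and 0.548). It fell by 3.77 ± 0.59 against Cpt2L-/- (adjusted p = 0.000645), and the log2 fold change was −4.68 ± 0.54 without replicate 1. In Tsc1L-/- livers it was 53.0, 60.6, 4.59 and 59.8 CPM, below every control and not past the test (−1.22 ± 0.55, adjusted p = 0.223, and −0.84 ± 0.28, adjusted p = 0.0847, without replicate 3). DKO exceeded Tsc1L-/- livers in Cyp4a31 by 1.41 ± 0.55 (adjusted p = 0.0674), and by 1.03 ± 0.28 without replicate 3 (adjusted p = 0.0124).

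Since Cyp4a10 was far more abundant than Cyp4a32, the share of Cyp4a32 among the counts of Cyp4a10, Cyp4a31 and Cyp4a32 was also computed. It was 1.07 to 2.29% in control, 2.96 to 4.14% in Cpt2L-/- and 3.22 to 4.06% in DKO livers, without overlap between control and either of these. When the counts of the 3 genes were summed, the sum was not called in Cpt2L-/- against control livers. That sum is mostly Cyp4a10, which was itself not called there, so it cannot check the rise of Cyp4a32. How far reads of Cyp4a10 were counted on Cyp4a32 was not tested.

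Cyp4a12a and Cyp4a12b, which make omega-hydroxylated arachidonic acid in male mice, went in opposite directions in Cpt2L-/- livers. Cyp4a12a was 303, 387, 406 and 347 CPM in control and 237, 215, 207 and 308 CPM in Cpt2L-/- livers. All but 1 of the Cpt2L-/- libraries lay below all controls, and Cyp4a12a fell 1.5-fold (log2 fold change −0.58 ± 0.20, edgeR adjusted p = 0.0342). This call was kept in 7 of 16 alternatives. Cyp4a12b was 64.4, 82.6, 30.8 and 27.3 CPM in control and 150.3, 117, 105 and 172 CPM in Cpt2L-/- livers. The groups did not overlap, though the controls spread 3.02-fold, and Cyp4a12b rose 2.65-fold (1.41 ± 0.45, adjusted p = 0.0287), kept in 10 of 15 alternatives.

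In DKO livers Cyp4a12a was 405 ± 34.7 CPM with a highest value of 452 CPM, and it overlapped control. All 4 libraries lay above every Cpt2L-/- library, a rise of 0.76 ± 0.20 over Cpt2L-/- (edgeR adjusted p = 0.014), kept in 13 of 16 alternatives. Cyp4a12b was 120.0, 135, 165 and 138 CPM in DKO livers, above every control, and rose by 1.46 ± 0.45 (adjusted p = 0.0212). It also exceeded Tsc1L-/- livers (83.6, 23.0, 18.9 and 46.5 CPM) by 1.71 ± 0.45 (adjusted p = 0.0107), and by 1.46 ± 0.44 without replicate 3 (adjusted p = 0.0283). Cyp4a12a overlapped between Tsc1L-/- (178 to 428 CPM) and control livers.

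Ppara KO livers held less Cyp4a12a, at 73.0, 239, 111 and 72.2 CPM, with replicate 2 the nearest to the controls. The fall was 2.95-fold (log2 fold change −1.56 ± 0.43, edgeR adjusted p = 0.0113). Cyp4a12b was 42.4, 41.3, 51.7 and 33.2 CPM there and lay within the control range. With Cpt2 also lost, Cyp4a12a was 93.3, 26.6, 21.3 and 28.8 CPM and Cyp4a12b 51.9, 16.3, 18.3 and 15.1 CPM, and replicate 1 was highest for both. Against Cpt2L-/- livers both fell without overlap, Cyp4a12a by 2.5 ± 0.44 (adjusted p = 0.00146) and Cyp4a12b by 2.41 ± 0.40 (adjusted p = 0.00103), and without replicate 1 the log2 fold changes were −3.24 ± 0.36 and −3.03 ± 0.35. Against Ppara KO livers Cyp4a12a fell by 1.53 ± 0.43 (adjusted p = 0.0182), and by 2.26 ± 0.34 without replicate 1. Cyp4a12b differed by −0.72 ± 0.39 (adjusted p = 0.178), and by −1.34 ± 0.32 without replicate 1 (adjusted p = 0.0193). The interaction for Cyp4a12b was −2.12 ± 0.55 (adjusted p = 0.0118), and −2.74 ± 0.44 without replicate 1, with a rise on Cpt2 loss when Ppara was intact and none when it was not.

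Because the 2 genes share reads, their split was set beside their sum. Cyp4a12b took 7.06 to 17.6% of their joint counts in control, 33.6 to 38.8% in Cpt2L-/-, 23.0 to 28.8% in DKO and 34.4 to 46.3% in Cpt2L-/- Ppara KO livers, and none of the last 3 overlapped control. In Ppara KO livers the share was 14.7 to 36.7%, which overlapped. Summed into 1 feature, the pair was not called in Cpt2L-/- against control livers.

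**Figure D4:**
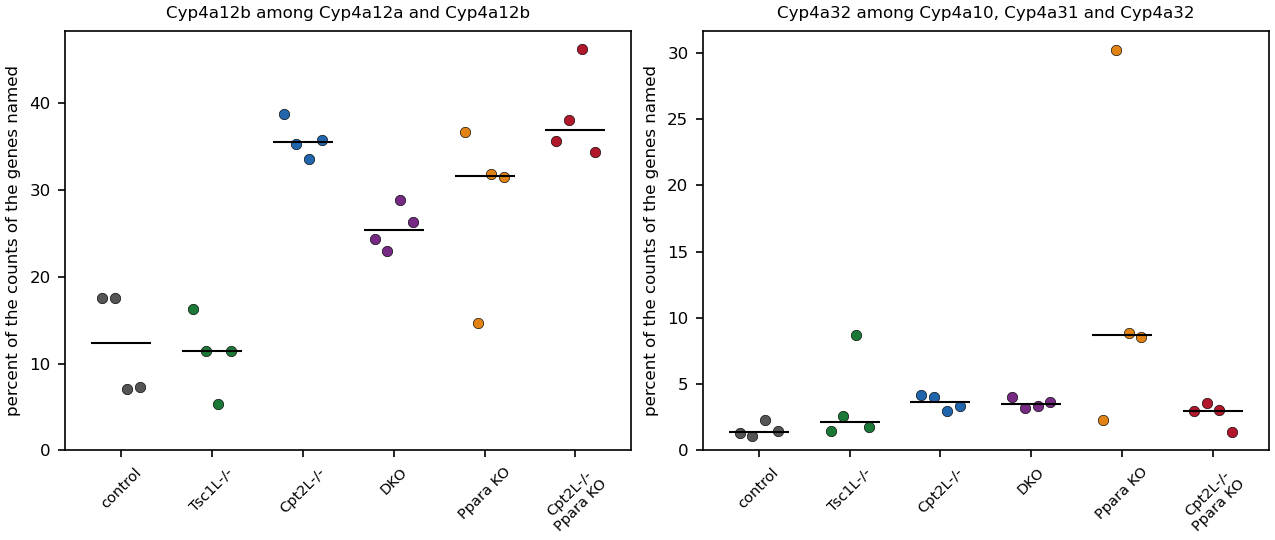
Percent of the joint counts taken by Cyp4a12b among Cyp4a12a and Cyp4a12b (left) and by Cyp4a32 among Cyp4a10, Cyp4a31 and Cyp4a32 (right) in 24 libraries, with group medians as lines. Cyp4a12b is at 33.6 to 38.8% in Cpt2L-/- and 7.06 to 17.6% in control livers, and Cyp4a32 at 2.96 to 4.14% and 1.07 to 2.29%. Ppara KO replicate 2, with Cyp4a32 at 30.2%, has 19.8 CPM of Cyp4a10.

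Cyp4f14 and Cyp4f15, of a subfamily whose products clear leukotrienes, fell in Cpt2L-/- and DKO livers. Cyp4f14 was 89.4, 80.8, 77.4 and 58.6 CPM in control, 22.2, 30.8, 24.1 and 36.3 CPM in Cpt2L-/- and 31.4, 30.9, 37.3 and 27.9 CPM in DKO livers. Both mutant groups lay below every control. Cyp4f14 fell 2.71-fold in Cpt2L-/- (log2 fold change −1.44 ± 0.36, edgeR adjusted p = 0.00758) and 2.38-fold in DKO livers (−1.25 ± 0.36, adjusted p = 0.0142), and both calls were kept in all 16 alternatives run for each. Tsc1L-/- livers held 137, 65.0, 276 and 79.0 CPM, the widest spread of any group for this gene, with replicate 3 the highest. DKO livers were below them by 2.11 ± 0.36 (adjusted p = 0.000574), or by 1.54 ± 0.22 without replicate 3.

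No fall of Cyp4f14 was seen on loss of Ppara alone. Its values in Ppara KO livers were 89.3, 164, 143 and 122 CPM, with 3 of 4 above all controls, a difference of 0.75 ± 0.30 that did not pass the test (edgeR adjusted p = 0.0683). Cyp4f14 in Cpt2L-/- Ppara KO livers was 16.2, 56.1, 60.5 and 49.3 CPM, with replicate 1 the lowest, and it fell by 1.5 ± 0.3 against Ppara KO (adjusted p = 0.00511). Without replicate 1 the fall was 1.22 ± 0.21 (adjusted p = 0.00503). Against Cpt2L-/- livers the difference was 0.69 ± 0.30 (adjusted p = 0.118), and without replicate 1 it was 0.96 ± 0.21 (adjusted p = 0.00526). The Cpt2 effects with and without Ppara differed by −0.06 ± 0.42 (adjusted p = 0.93), so a difference between them was not detectable at this spread.

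Cyp4f15 was 200.1, 149.9, 178 and 133 CPM in control, 82.1, 109.9, 109 and 84.6 CPM in Cpt2L-/- and 49.8, 34.8, 41.0 and 64.0 CPM in DKO livers. The 3 groups did not overlap. It fell 1.72-fold in Cpt2L-/- (log2 fold change −0.78 ± 0.19, edgeR adjusted p = 0.00416) and 3.45-fold in DKO livers (−1.78 ± 0.19, adjusted p = 2.42e-06). DKO livers were also below Cpt2L-/- livers, with a log2 fold change of −1 ± 0.19 (adjusted p = 0.00188), and below Tsc1L-/- livers (155, 110.1, 179 and 131 CPM) by 1.59 ± 0.19 (adjusted p = 1.02e-05). Loss of Tsc1 with Cpt2 intact gave −0.20 ± 0.19 (adjusted p = 0.607). The test of the difference between these effects of Tsc1 loss, −0.81 ± 0.27, did not pass (adjusted p = 0.111). No member was called by edgeR in the Tsc1 by Cpt2 interaction, in which 2 members had an unadjusted p under 0.05, DESeq2 called 1 member and 2.38% of all genes were called, 1.09% higher and 1.28% lower. Cyp4f15 in Ppara KO livers was 72.2, 102, 102 and 97.1 CPM, below every control, a fall of 0.83 ± 0.30 near the threshold (adjusted p = 0.0469) that was kept in 6 of 16 alternatives. Cyp4f15 in Cpt2L-/- Ppara KO livers was 25.6, 65.6, 109.6 and 97.6 CPM and overlapped Ppara KO and Cpt2L-/-.

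Cyp4v3 varied least. It was 409, 495, 419 and 459 CPM in control livers, and group means ran from 269 to 446 CPM. It fell 1.29-fold in DKO livers (351, 336, 376 and 302 CPM, log2 fold change −0.37 ± 0.12, edgeR adjusted p = 0.0269), with no overlap with control, a call kept in 9 of 16 alternatives. Its values in Cpt2L-/- Ppara KO livers were 229.7, 304, 297 and 245 CPM, a fall of 0.64 ± 0.19 against Ppara KO (293 to 529 CPM with a median of 431 CPM, adjusted p = 0.0212), and of 0.57 ± 0.19 without replicate 1 (adjusted p = 0.0524). No other comparison of Cyp4v3 passed the test.

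Of 11 other Cyp4 genes listed for context, 5 were expressed enough to test in the Tsc1 and Cpt2 groups and 6 in the Ppara groups. In Tsc1L-/- livers 2 rose, Cyp4f16 by 1.08 ± 0.27 and Cyp4f17 by 0.68 ± 0.15 (edgeR adjusted p = 0.02 and 0.0091). In Cpt2L-/- livers Cyp4f17 rose by 1 ± 0.15 (adjusted p = 6.45e-05) while Cyp4f13 fell by 0.40 ± 0.09 (adjusted p = 0.00368). In DKO against control livers 3 rose, led by Cyp4f39 (1.73 ± 0.49) and Cyp4f16 (1.49 ± 0.27), and 2 fell. Cyp4f39 rose in Ppara KO livers by 2.74 ± 0.67 and Cyp4f17 by 1.12 ± 0.34 (adjusted p = 0.00573 and 0.0197), where none of the 9 members rose. With Cpt2 lost as well, Cyp4f39, Cyp4f17 and Cyp4f13 fell against Ppara KO, with log2 fold changes of −2.67 ± 0.67, −1.4 ± 0.34 and −0.46 ± 0.16, and 2 of the 3 were called without replicate 1.

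Microsomal P450s receive electrons from cytochrome P450 reductase (Por) and cytochrome b5 (Cyb5a), and a context list of 5 genes that includes both was tested. The list is wider than these donors, and Cyb5b in it is a mitochondrial form of cytochrome b5. None was called in Tsc1L-/- against control livers. In Cpt2L-/- livers 3 of 5 fell, Cyb5b by 0.83 ± 0.20, Cyb5r3 by 0.63 ± 0.20 and Cyb5a by 0.53 ± 0.18 (edgeR adjusted p = 0.00471, 0.0213 and 0.032). The list's median log2 fold change was −0.53, against −0.016 over all genes. Por fell by 0.71 ± 0.18 in DKO against Cpt2L-/- livers (adjusted p = 0.0105). A single gene of the 5 fell in Ppara KO livers, Cyb5b by 1.08 ± 0.26. Cyb5a rose by 1.18 ± 0.28 in Cpt2L-/- Ppara KO against Cpt2L-/- livers (adjusted p = 0.00939), and by 1.06 ± 0.28 without replicate 1.

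The dehydrogenases that carry omega-hydroxy fatty acids on to dicarboxylic acids were listed as 7 genes, of which 6 were tested. Aldh3a2, the fatty aldehyde dehydrogenase, rose by 1.08 ± 0.28 in Cpt2L-/- and by 1.09 ± 0.28 in DKO livers and fell by 1.28 ± 0.28 in Tsc1L-/- livers (edgeR adjusted p = 0.0063, 0.00518 and 0.0096). It was the one gene of the list that rose in DKO livers, where Adh4 (−1.33 ± 0.16), Adh1 (−0.74 ± 0.22) and Adh5 (−0.6 ± 0.15) fell. In Tsc1L-/- livers Adh4 also fell (−0.61 ± 0.16), and 4 of 6 fell without replicate 3. In Ppara KO livers 5 of 6 fell, led by Aldh3a2 (−3.42 ± 0.50), Adh4 (−2.82 ± 0.25) and Adh1 (−1.98 ± 0.24), and the list's median was −1.72 against 0.014 over all genes. In Cpt2L-/- livers 1 rose and 2 fell, Adh4 by 1.89 ± 0.17 (adjusted p = 7.86e-07) and Adh5 by 0.51 ± 0.15. Against Ppara KO livers, 4 of 6 rose in Cpt2L-/- Ppara KO, led by Aldh3a2 (2.73 ± 0.49), Adh1 (1.05 ± 0.23) and Adh4 (0.94 ± 0.24), and 3 rose without replicate 1, where Aldh3a2 was 1.97 ± 0.38 (adjusted p = 0.00791). The Adh4 change on Cpt2 loss differed between livers with and without Ppara by 2.83 ± 0.34 (adjusted p = 8.47e-05).

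Genes for the peroxisomal handling of dicarboxylic acids were listed as 10, all tested. The list holds chain-shortening enzymes and also a transporter, thioesterases and an octanoyltransferase. In Ppara KO livers 9 of 10 fell and none rose, led by Ehhadh, the bifunctional enzyme (−4.76 ± 0.92), Acaa1b, a thiolase (−3.82 ± 0.42), and Crot, an octanoyltransferase (−2.82 ± 0.38), with edgeR adjusted p of 0.00135, 9.07e-06 and 6.61e-05. In Cpt2L-/- livers 4 rose and none fell, among them Ehhadh (1.63 ± 0.54) and Acaa1b (1.24 ± 0.21). Against Cpt2L-/- livers, 9 of 10 fell in Cpt2L-/- Ppara KO, with or without replicate 1, among them Ehhadh (−3.35 ± 0.86, adjusted p = 0.0157, and −6.08 ± 0.34 without the replicate) and Acaa1b (−2.44 ± 0.39, adjusted p = 0.000643). In Tsc1L-/- livers 6 fell and none rose, led by the thioesterase Acot4 (−1.73 ± 0.38), Acaa1b (−1.67 ± 0.21) and the transporter Abcd3 (−0.86 ± 0.17), and 6 fell without replicate 3, where Ehhadh (−1.45 ± 0.36, adjusted p = 0.0234) was called and Scp2 was not. In DKO against Tsc1L-/- livers 8 of 10 rose, and 7 without that replicate. Against Ppara KO livers, 6 rose in Cpt2L-/- Ppara KO and none fell, and without replicate 1, where the genes called higher among all genes went from 12.9% to 5.74%, 3 did. Ehhadh, which rose by 3.04 ± 0.85 (adjusted p = 0.0192), then stood at 0.30 ± 0.26 (adjusted p = 0.463), whereas Acaa1b stood at 2.17 ± 0.34 (adjusted p = 0.00252).

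Among 7 nuclear receptors of hepatocyte P450 genes, Ppara itself was 273 to 383 CPM in Cpt2L-/- and 168 to 269 CPM in DKO livers, which were not called against control. Nr1i2, the pregnane X receptor, fell by 0.83 ± 0.14 in Tsc1L-/- livers (edgeR adjusted p = 0.00172). Rxrb, a partner receptor, rose by 0.88 ± 0.10 in Cpt2L-/- livers (adjusted p = 4.06e-06), where Rxra fell by 0.50 ± 0.13 and Nr1h4 by 0.39 ± 0.14. Ppara KO livers had falls of Ppara (−3.23 ± 0.41), Nr1i3 (−1.28 ± 0.31) and Nr1h4 (−0.82 ± 0.16) and a rise of Rxrb (0.53 ± 0.14).

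Because Cyp4a12a is male-biased, 8 other male-biased genes were listed. In Ppara KO livers, where Cyp4a12a fell, 3 of 8 rose and none fell, led by Selenbp2 (4.27 ± 0.79), Ugt2b38 (3.19 ± 0.59) and Cyp7b1 (1.51 ± 0.39), with edgeR adjusted p of 0.000991, 0.000953 and 0.00867. In DKO livers, where Cyp4a12a overlapped control, 5 of 8 fell, led by Hsd3b5 (−5.02 ± 1.03), Ugt2b38 (−3.13 ± 0.66) and Cyp7b1 (−2.16 ± 0.49). In Cpt2L-/- livers 2 fell, Slco1a1 by 2.11 ± 0.26 and Cyp7b1 by 1.37 ± 0.47, and in Tsc1L-/- livers 4 fell, or 3 without replicate 3. Cpt2L-/- Ppara KO against Ppara KO livers had 6 fall, or 4 without replicate 1. Of 9 female-biased genes only 3 were expressed enough to test, and Cux2 fell in Cpt2L-/- (−4.30 ± 1.06, adjusted p = 0.00816) and DKO livers (−3.23 ± 0.97, adjusted p = 0.0201).

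The genes whose pattern over the 24 libraries was most like that of a member were found by the root mean square difference of centred log2 CPM among 12234 genes. For Cyp4a10, whose own value was 2.52, they were Cyp4a31 (0.85), Chrna2 (0.88), Retsat (0.90), Ehhadh (1.06) and Vnn1 (1.14). For Cyp4a14, whose own value was 3.53, they were Vnn1 (0.87), Cyp4a10 (1.16), Serinc2 (1.58), Chrna2 (1.58) and Caln1 (1.64). Retsat and Vnn1 encode retinol saturase and the pantetheinase vanin. Cyp4a12a (1.33) was nearest to Rfx4 (0.69), Acsl1 (0.75), Pdp2 (0.77), Spc25 (0.78) and Decr2 (0.81). Cyp4f14 (1.01) was nearest to C8a (0.40), F7 (0.43), Ly6e (0.44), Gpld1 (0.47) and Tiam2 (0.47), of which C8a and F7 encode secreted plasma proteins of complement and coagulation. The 2 lists for Cyp4a10 and Cyp4a14 share Chrna2 and Vnn1.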

How the data were processed

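Tables of 35275 genes were used, in which the authors deposited raw read counts and FPKM values with GRCm38 coordinates for 24 liver libraries made from TRIzol RNA. The deposited FPKM equaled the counts divided by gene length and library total in all 24 columns (relative tolerance 1e-05). The submitters' processing notes list mm8 and mm9, Bowtie 0.12.2, TopHat, STAR 2.5, STAR-Fusion, HTSeq 0.6.1, DESeq2 and edgeR without a role, and the strand setting is not given in the sources used here. Groups and replicate numbers came from the sample labels. Counts were tested with edgeR 4.0.16 in R 4.3.3 (filterByExpr with minimum counts of 10 per library and 15 in total, TMM, robust quasi-likelihood fit, Benjamini-Hochberg adjustment over all genes, threshold 0.05) in 1 fit of control, Tsc1L-/-, Cpt2L-/- and DKO (13641 genes) and 1 of control, Cpt2L-/-, Ppara KO and Cpt2L-/- Ppara KO (13615 genes), 16 libraries each. CPM used TMM factors over the 24 libraries, and log2 CPM a prior count of 2. Levels of different genes were compared only in FPKM. Alternatives were RLE factors, no filter, DESeq2 1.42.0, limma 3.58.1 on log2(FPKM + 1), all 24 libraries, 2 groups only, a replicate block, each library left out and paralog counts summed. A library was left out only in comparisons that include its group. Counts over the context lists without the libraries that stand apart were added after seeing the data. On simulated counts edgeR recovered 80% of 100 genes changed 1 log2 unit and 98% of 100 changed 2 units in Cpt2L-/- against control, and 65% and 93% in Cpt2L-/- Ppara KO against Cpt2L-/-, where 13 of 171 calls were false. Replicate pairs within groups (36) differed beyond sampling noise (chi-square per gene of at least 24.1), so none was counted as a duplicate.

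All members, the targeted genes, up to 3 called genes per context list and comparison with the largest change, and the 5 genes most like each of 4 members (mean of at least 1 CPM) could be named, except that 1 context gene is not reported here. For context lists, values are given for the comparisons described. The members and lists were chosen with earlier results of these data known. Coding sequences were aligned with Biopython 1.88. Figures used matplotlib 3.10.9. A genome sequence and protein sequences were not used here.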

Additional observations from a re-analysis of the deposited data

Results flagged for a closer look

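A library farther from the other 3 of its group than Dixon's 95% limit allows was found in 8 of 54 sets of 4 libraries, where chance flags about 1 in 20. Of these, 5 came from Cpt2L-/- Ppara KO replicate 1, which was highest for Cyp4a10 (1593 CPM against 276 to 300.2), Cyp4a14 (3183 CPM against 185 to 294), Cyp4a32 (49.0 CPM against 4.14 to 10.4), Cyp4a12a (93.3 CPM against 21.3 to 28.8) and Cyp4a12b (51.9 CPM against 15.1 to 18.3). Cyp4a31 was lowest in Tsc1L-/- replicate 3 (4.59 CPM against 53.0 to 60.6) and highest in DKO replicate 4 (197 CPM against 83.9 to 94.0). Cyp4f15 was lowest in Ppara KO replicate 1 (72.2 CPM against 97.1 to 102).

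The change on Cpt2 loss differed between livers with and without Ppara for 3 members in the edgeR interaction test, by 2.59 on the log2 scale for Cyp4a10, 4.88 for Cyp4a14 and −2.12 for Cyp4a12b (n = 4 per group, adjusted p = 0.0314, 0.00886 and 0.0118). Without Cpt2L-/- Ppara KO replicate 1, Cyp4a10 was no longer called by edgeR (adjusted p = 0.0894), Cyp4a14 and Cyp4a12b were, and Cyp4a32 and Cyp4a12a were also called lower. This test also spans the Cd1d2 split.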

How the results depend on the processing

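Of 37 calls of single members, 22 were kept in every alternative run for them. Over 90 member results, 1407 of 1532 alternative values kept direction and side of the threshold, 65 lost the call, 34 gained one and 26 changed sign, the last all among results that were not called, and 4 adjusted p that DESeq2 gave as NA were left out. The cause of these shifts was not tested. The number of members called was 0 in Tsc1L-/- against control (2 with DESeq2, 0 to 3 without 1 library), 5 in Cpt2L-/- against control (3 in a fit of all 24 libraries, 2 with paralogs summed, which leaves fewer features, 3 to 5 without 1 library), 5 in DKO against control (3, 3 and 3 to 5 in the same order) and 2 in DKO against Cpt2L-/- (1 in all 24 libraries, 4 with the 2 groups only, 1 with paralogs summed, 1 to 3 without 1 library). It was 4 in DKO against Tsc1L-/- (7 with DESeq2, 4 to 7 without 1 library), 0 in the Tsc1 by Cpt2 interaction (1 with DESeq2, 0 to 1 without 1 library), 6 in Cpt2L-/- Ppara KO against Cpt2L-/- (3 with paralogs summed, 6 to 7 without 1 library), 3 in the Cpt2 by Ppara interaction (2 to 4 without 1 library) and 6 in Cpt2L-/- Ppara KO against Ppara KO (0 with the 2 groups only, which also lowered the calls over all genes to 111, and 3 to 6 without 1 library). Without 1 library the signs of uncalled log2 fold changes varied in Tsc1L-/- against control for Cyp4a12a (−0.31 to 0.05) and Cyp4a12b (−0.79 to 0.08), in DKO against control for Cyp4a14 (−0.09 to 0.2) and Cyp4a31 (−0.18 to 0.32), in DKO against Cpt2L-/- for Cyp4a31 (−0.33 to 0.17) and Cyp4a12b (−0.07 to 0.19), in the Tsc1 by Cpt2 interaction for Cyp4a32 (−0.16 to 0.38), Cyp4a12b (−0.04 to 0.85) and Cyp4v3 (−0.14 to 0.03), and in Ppara KO against control for Cyp4a12b (−0.5 to 0.04) and Cyp4v3 (−0.21 to 0.04). The same held for Cyp4a31 in Cpt2L-/- Ppara KO against Ppara KO (−0.46 to 0.95) and, in the Cpt2 by Ppara interaction, for Cyp4a31 (−0.61 to 0.82) and Cyp4f14 (−0.23 to 0.22). With limma on FPKM, Cyp4v3 in Tsc1L-/- against control was 0. The replicate numbers did not pair the samples, since correlations of same-numbered deviations ran from −0.26 to 0.17 and in no comparison exceeded 0.1 in all 4 pairs. With the replicate block the number of members called was 5 in place of 6 in Cpt2L-/- Ppara KO against Ppara KO and the same elsewhere, and Cyp4a31 in DKO against Cpt2L-/- was −0.07. On simulated counts 65 to 80% of changes of 1 log2 unit were recovered with 4 libraries a group, so changes of that size can be missed.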
